A study of Mus musculus with 3 samples.

Results

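The Ikaros and Runx family factors examined here are 7 genes of 27734 measured in all runs, namely Ikzf1, Ikzf2, Ikzf3, Runx1, Runx2, Runx3 and Cbfb. Their rows were taken by symbol, with earlier results of these data known, and described over stages of thymocyte development. The data are single-cell RNA counts from 3 10x libraries of C57BL/6 mice labeled as 6 weeks old, each from 4 pooled thymi depleted of CD4- or CD8-expressing cells, with no gene altered and no treatment. Run 1 held TCRγδ+ cells and all double negative (DN) thymocytes, which lack CD4 and CD8 and were gated to exclude B cells (B220), myeloid cells (CD11b, CD11c), NK1.1+ and TCRβ+ cells. Run 2 held the CD44+ TCRγδ- fraction (DN1 and DN2) of such cells, and run 3 a mixture of separately sorted DN1 with DN2, DN3 and TCRγδ+ cells. Each sort was made once, so a run is also a sort, a pool of mice and a library, and these cannot be told apart. A cell was used when it had between 500 and 5000 genes detected and mitochondrial transcripts made up no more than 7% of its counts, which left 21879 of 23283 cells.

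Ikaros family proteins are zinc finger DNA-binding proteins that form dimers with each other and recruit the chromatin remodeler and histone deacetylase complex NuRD. Ikzf1 encodes Ikaros, a regulator required for normal lymphocyte development and a tumor suppressor in T cell leukemia. Ikzf2 encodes Helios, which is known in regulatory T cells and in strongly signaled T cells, and Ikzf3 encodes Aiolos, which is known in B cells and mature lymphocytes. Runx proteins bind DNA through the runt domain, and Cbfb encodes CBFβ, the partner without a DNA-binding domain of its own that strengthens this binding. In the thymus, Runx1 and Runx3 are known to silence Cd4 and to take part in T lineage commitment and CD8 lineage choice, while Runx2 is best known from bone and is also expressed in early progenitors.

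The loci were taken from GENCODE vM21 on GRCm38 (mm10), whose identifiers matched those of the count tables for 7 of 7 members. Ikzf1 lies on chromosome 11 from 11685003 to 11772926 on the plus strand. Ikzf2 lies on chromosome 1 from 69531214 to 69687245, Ikzf3 on chromosome 11 from 98464902 to 98546031, Runx1 on chromosome 16 from 92601466 to 92826149 and Runx2 on chromosome 17 from 44495987 to 44814797, all on the minus strand. Runx3 lies on chromosome 4 from 135120652 to 135177990 and Cbfb on chromosome 8 from 105170674 to 105217989, both on the plus strand. Genes on the opposite strand overlap 5 of the 7 loci, among them Supt3 at Runx2.

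RefSeq promoters of GRCm38.p6, each 250 bases before to 50 bases after a start, were given for 5 of the 7 members in 8 windows. The 3 Runx genes share 1 run of 18 bases in these windows, which holds 2 copies of the RUNX-type motif ACCACA, 2 bases apart. It is shown because it is the longest stretch common to promoters of all 3 genes. The sequences read 5′ to 3′ on the strand of the gene, and capitals mark the motif copies.
Runx1 upstream promoter: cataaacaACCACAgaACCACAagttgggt
Runx2 promoter: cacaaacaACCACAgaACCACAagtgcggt
Runx3 upstream promoter: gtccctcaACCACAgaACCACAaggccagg
The windows are chr16:92826025-92826054 on the minus strand, chr17:44814583-44814612 on the minus strand and chr4:135120503-135120532 on the plus strand. The shared run spans bases 27 to 44 after the start of Runx1 and 22 to 39 after that of Runx2, within the transcribed part, and bases -136 to -119 of Runx3, before the start. Of 32851 promoters, 4 held the run on either strand, and the one outside the family, Gm16225, held the same chromosome 4 bases as Runx3, read from the other strand. Single matches to ACCACA or its reverse TGTGGT were common, at 16.8% of all promoters. The Ikaros-type motif TTCCCA or its reverse TGGGAA was found in 25.6% of all promoters and once among the 8 windows, upstream of Runx3. A match is a sequence description, and binding was not measured.

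**Figure D1:**
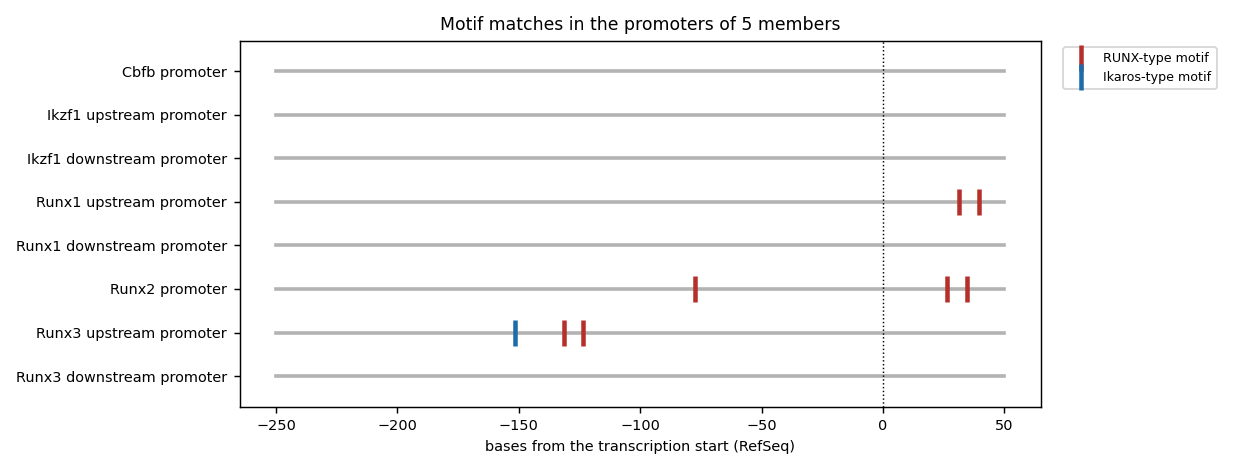
Positions of motif matches in the 8 RefSeq promoter windows of 5 members, in bases from the transcription start on the strand of the gene. Red ticks mark ACCACA or its reverse and blue ticks TTCCCA or its reverse, and the paired red ticks lie downstream of the start in Runx1 and Runx2 and upstream of it in Runx3.

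Cells were placed in gates by the UMIs (unique molecules counted) of stage markers, none of which is a member, and a cell took the first gate it matched. B-like and myeloid or dendritic-like cells came first, by at least 2 of 5 and 2 of 7 markers. Type 17-like cells had 2 of Icos, Il17re, Il23r, Il1r1 and Ccr6 and no UMI of Ptcra. NK-receptor-like cells had 2 of Klrd1, Il2rb, Nkg7, Ccl5, Klrb1c and Ncr1 and likewise no UMI of Ptcra. The latter were divided into cells with at least 2 Trdc UMIs and cells with fewer, called without Trdc. Immature γδ-like cells had at least 2 Trdc UMIs with 2 of Sox13, Etv5, Blk and Maf. Ptcra was not part of that rule, so this gate may hold Ptcra+ cells, unlike the type 17-like and NK-receptor-like gates. Receptor-signaled-like cells had Ptcra with 2 of Egr1, Cd5, Nr4a1 and Cd69, and DN4-like cells had Cd8a or Cd8b1 without Il2ra and Cpa3. ETP-like cells (early thymic progenitors) had 2 of Cd34, Flt3 and Kit without Il2ra, Ptcra, Rag1 and Rag2, DN2a-like cells had Cpa3 and Il2ra without Rag1, Rag2 and Ptcra, and DN2b-like cells had Cpa3 and Il2ra with 1 of those 3. DN3-like cells had Ptcra and Il2ra without Cpa3 and were called cycling with 2 of Mki67, Top2a, Cdk1, Birc5 and Ccnb2, or resting with Rag1 or Notch3. Remaining Il2ra+ cells without Cpa3, Rag1, Rag2 and Ptcra were called Il2ra-only.

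The gates held 17157 cells, and 4722 stayed unassigned. UMIs of a gate in a run were summed where it held at least 20 cells, which gave 37 sums over 14 gates, and levels are CPM (counts scaled to a fixed library total of summed UMIs) with exact 95% Poisson intervals that cover counting error only. The ETP-like gate was small, with 1, 32 and 24 cells in runs 1 to 3, and so was the DN4-like gate in runs 2 and 3, with 20 and 27 cells against 1137 in run 1. Type 17-like cells numbered 4, 579 and 527 and NK-receptor-like cells without Trdc 10, 2059 and 1171, so that both were read in runs 2 and 3 only. Run 2 was sorted as CD44+ TCRγδ- cells, yet 455 immature γδ-like, 312 resting and 313 cycling DN3-like cells were placed there by transcripts. These gates may therefore hold unlike cells in run 2 and in the runs sorted with DN3 and TCRγδ+ cells, which was not tested. DN4 cells were part of the sort in run 1 only, and the DN4-like cells of runs 2 and 3 were placed in their gate by transcripts. That gate too may hold unlike cells in run 1 and in the other runs, which was not tested. Of markers that did not set the gates, Ptprc (CD45) was at 106 CPM or more in every sum and Cd3e at 22.2 CPM or more, the lowest being the ETP-like sum of run 3. The NK-receptor-like cells without Trdc held Cd3e at 839 and 529 CPM although the sort removed NK1.1+ cells, so the gate is named from its receptors and not as natural killer cells. The B-like gate of run 2 held 24 cells with B cell markers summing to 812 CPM, against 3796 CPM in the 534 cells of run 3. The runs held 39947415, 52797915 and 98533329 UMIs. Median UMIs per kept cell were 5916, 4804 and 8451 in the 3 runs, and depth differed between gates, from 3258 in resting to 10319 in cycling DN3-like cells of run 1. Runs 1 and 2 shared 72 cell barcodes, runs 1 and 3 shared 1 and runs 2 and 3 shared 0.

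The members differed between runs within the same gates. Over the 9 gates present in all runs, Cbfb was lower in run 3 than in run 2 in 9 of 9, with a median difference of -1.61 in log2(CPM + 1), a 3.06-fold lower level. Against run 1 the median difference of Cbfb was -1.67, and 5.08% of 7694 genes of at least 10 CPM moved as far or farther. Runx3 was higher in run 3 in 9 of 9 gates against either run, by a median of 1.26 against run 2 and 1.29 against run 1. Runx1 was higher in run 3 in 9 of 9 gates too, by 0.97 against run 2 and 1.36 against run 1, and Ikzf2 by 0.88 and 0.86. Ikzf1 moved least, by 0.30 against either run. Shares of genes moving as far in run 3 against runs 1 and 2 were 69.4% and 67.2% for Ikzf1 and 26.0% and 25.3% for Ikzf2. They were 8.97% and 21.4% for Runx1 and 10.5% and 12.1% for Runx3. In run 2 against run 1, Ikzf3 had a median of -1.25 (1.64% of genes as far) and was higher in 3 of 9 gates. Runx1 had a median of 0.66 there (6.54%) and was higher in 8 of 9. The median gene moved by -0.01 between run 3 and either other run. The count table of run 3 names Cell Ranger 4.0.0 and lists 32285 genes against 28692 in the others, and the study names more than 1 version of the 10x kit, so that kit, software, sort and animals cannot be told apart here. For this reason gates were compared within runs, with the run as a term of the model.

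**Figure D2:**
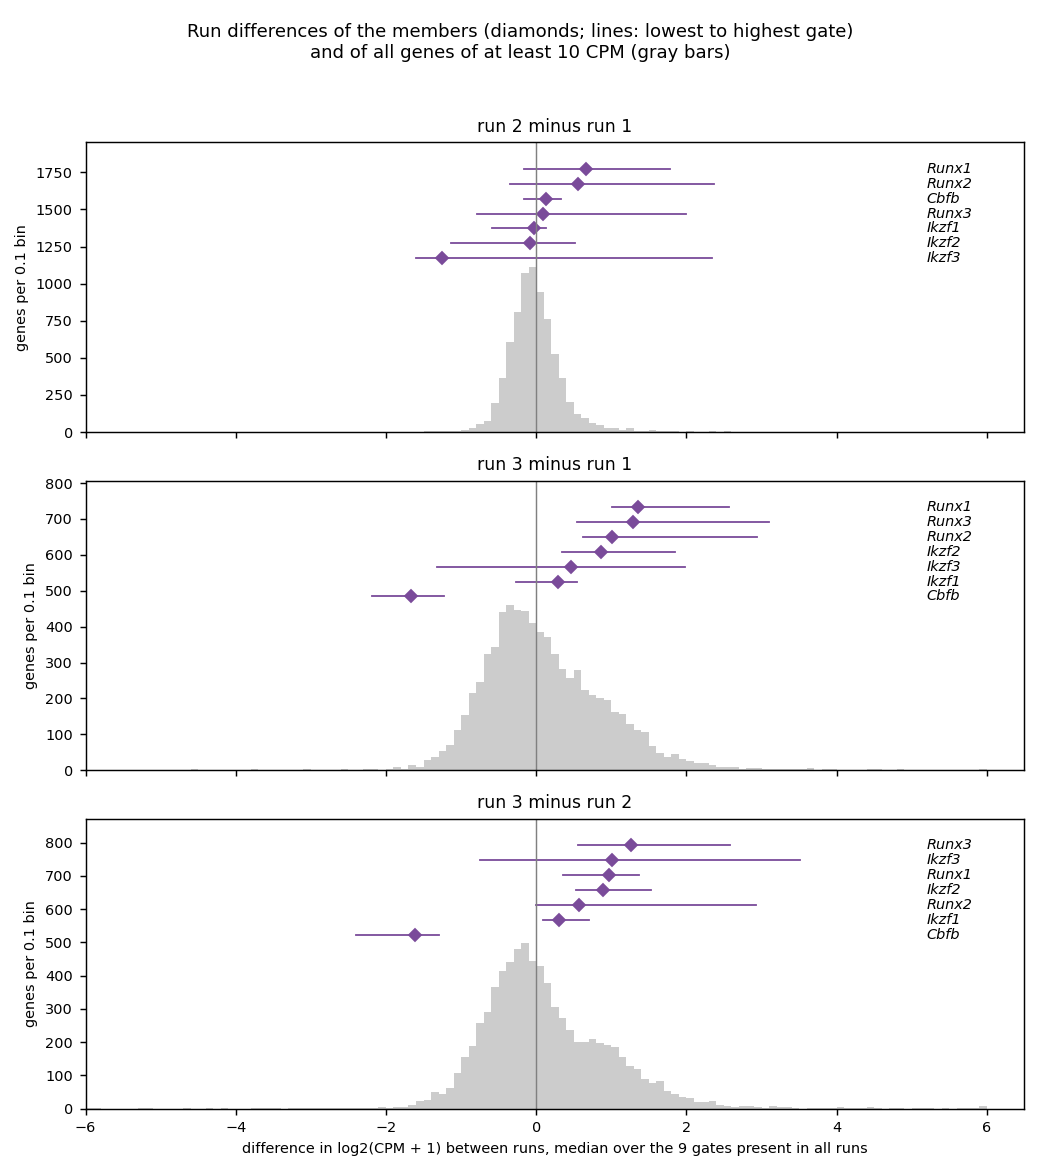
Differences between runs in log2(CPM + 1), as the median over the 9 gates present in all 3 runs. Gray bars count all 7694 genes of at least 10 CPM, diamonds are the members and lines run from their lowest to their highest gate, with Cbfb on the negative side of both comparisons with run 3 in every gate.

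The 9 comparisons of chosen pairs of gates used the edgeR quasi-likelihood F test over 11863 genes, with the run as a block. Of 63 member results 27 passed an adjusted p of 0.05. Whether cells of a gate descend from those it was compared with was not tested. The comparison of immature γδ-like with resting DN3-like cells called the most, with 6 of 7 members against 28.1% of all genes. Its run 2 sums came from a sort without DN3 and TCRγδ+ cells. NK-receptor-like cells without Trdc against immature γδ-like cells called 5 of 7 (37.2% of all genes), and type 17-like against immature γδ-like cells 4 of 7 (33.6%). Cycling against resting DN3-like cells called 4 of 7 (39.9%), DN4-like against cycling DN3-like cells 3 of 7 (2.52%), resting DN3-like against DN2b-like cells 2 of 7 (24.3%) and receptor-signaled-like against resting DN3-like cells 2 of 7 (19.8%). The DN4-like sums of runs 2 and 3 came from sorts without DN4 cells. Between DN2a-like and ETP-like cells 1 of 7 was called (6.23%). DN2b-like against DN2a-like cells called 0 of 7 members (0.126% of all genes by edgeR), and DESeq2 called 0 of 7 too, with 6 genes in all. In that comparison the smallest unadjusted p was 0.0717, for Runx3, so that 0 of 7 were under 0.05 without adjustment too. A fit of these gates alone called 2 of the 7, Ikzf2 (log2 -0.18, adjusted p = 0.0119) and Runx3 (log2 -0.42, adjusted p = 1.98e-06). It called 667 genes in all, against 15 in the main fit. The run as a block carried most calls: without it, 2 of the 27 were left, Ikzf1 and Ikzf3 between immature γδ-like and resting DN3-like cells. Without run 3, 16 members were called over the same 9 comparisons. The members are few and the comparisons share gates, so these shares are a description.

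**Figure D3:**
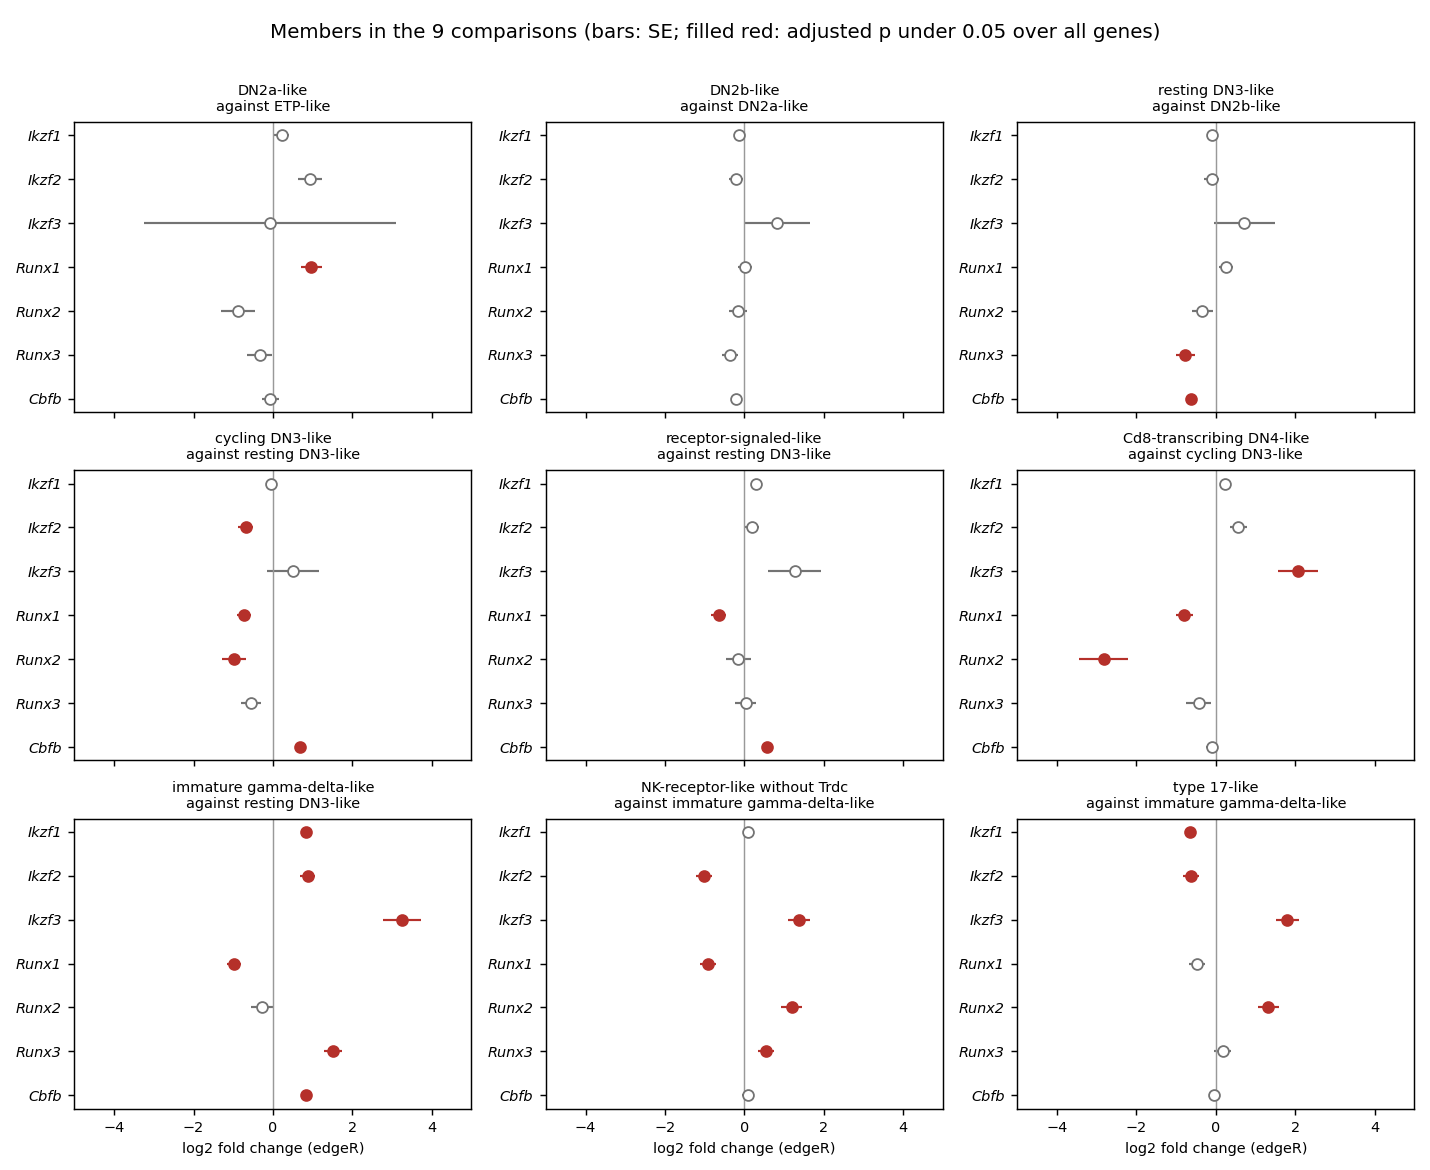
Log2 fold changes of the 7 members in the 9 comparisons, positive where the gate named first was higher. Bars are standard errors over sums of 3 runs, filled red points have an edgeR adjusted p under 0.05 over all genes, and the immature γδ-like comparison with resting DN3-like cells has 6 red points.

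Ikzf1 (Ikaros) was present in all gates, from 65.9 CPM in the B-like sum of run 2 to 256 CPM in the immature γδ-like sum of run 3. In DN2a-like cells it stood at 130, 129 and 158 CPM in runs 1 to 3, in resting DN3-like cells at 107, 112 and 131 CPM and in immature γδ-like cells at 175, 185 and 256 CPM. The immature γδ-like sum was thus above the resting DN3-like sum in each run, without overlap of the groups. The fitted change was a 1.77-fold rise (log2 0.82, SE 0.12, adjusted p = 2.78e-06), and this call was kept under each alternative tried. Across the DN stages the mean lay between 111 CPM in cycling DN3-like and 150 CPM in Il2ra-only DN2-like cells, and 0 of 6 comparisons from ETP-like to DN4-like cells passed the test, with fitted log2 changes between -0.14 and 0.30. DESeq2 called 0 of the 6 too, and 1 had an unadjusted edgeR p under 0.05, receptor-signaled-like against resting DN3-like cells. In NK-receptor-like cells without Trdc the levels were 172 and 210 CPM in runs 2 and 3. Type 17-like cells had less, 112 and 130 CPM, and fell against immature γδ-like cells by 0.65 on the log2 scale (SE 0.14, adjusted p = 2.99e-04). Without run 3 that fall was 0.48, with an adjusted p of 0.0926.

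Ikzf2 (Helios) was highest in cells with Trdc. NK-receptor-like cells with Trdc had 446, 202 and 565 CPM in runs 1 to 3 and immature γδ-like cells 184, 263 and 380 CPM, while resting DN3-like cells had 112, 101 and 252 CPM. The immature γδ-like cells were above the resting DN3-like cells within each run, although the ranges over runs overlapped. The fitted rise was 1.83-fold (log2 0.87, SE 0.18, adjusted p = 3.39e-04). Up to 30.7% of the NK-receptor-like cells with Trdc were among the 8% of cells with the highest doublet scores of their run, and this gate entered no comparison.

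Ikzf2 also fell with cycling among DN3-like cells, to 78.1, 77.2 and 119 CPM. This was a fall of 0.69 on the log2 scale (SE 0.19, adjusted p = 0.00377), which was not called without run 3 (log2 -0.39, adjusted p = 0.225). Of the cycling DN3-like cells of run 1, 23.8% were among the highest doublet scores, and the 4 members called in this comparison were called without those cells too. Cycling DN3-like cells were deeper, with median UMIs of 10319, 9391 and 16567 against 3258, 4460 and 7227 in resting ones, and the part of depth in the difference was not tested. Ikzf2 was lower in NK-receptor-like cells without Trdc and in type 17-like cells than in immature γδ-like cells. In NK-receptor-like cells without Trdc it stood at 88.4 and 171 CPM and fell by 1.03 (SE 0.20, adjusted p = 9.67e-05). In type 17-like cells it stood at 154 and 190 CPM and fell by 0.62 (SE 0.20, adjusted p = 0.0159), which was lost without run 3 (log2 -0.32, adjusted p = 0.439) and with DESeq2 (adjusted p = 0.0648). From ETP-like to DN2a-like cells Ikzf2 went from 94.5 to 145 CPM in run 2 and from 139 to 268 CPM in run 3, just outside the threshold (log2 0.93, SE 0.30, adjusted p = 0.0507). This was called without run 1 (adjusted p = 0.0422) though run 1 gave no ETP-like sum.

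Ikzf3 (Aiolos) had the lowest levels of the members in ETP-like and DN2a-like cells. In DN2a-like cells it was at 0, 1.15 and 1.88 CPM in runs 1 to 3, from 0, 12 and 19 UMIs, and the ETP-like sums held 0 and 1 UMI. Resting DN3-like cells had 2.93, 7.44 and 4.03 CPM, immature γδ-like cells 11.5, 62.4 and 39.0 CPM, and type 17-like cells 102 and 149 CPM in runs 2 and 3. The groups did not overlap between resting DN3-like and immature γδ-like cells, and the fitted rise was 9.55-fold (log2 3.26, SE 0.47, adjusted p = 1.34e-06), kept under each alternative tried. The differences in log2(CPM + 1) were 1.67, 2.91 and 2.99 in runs 1 to 3. In run 1 immature γδ-like cells were below DN4-like cells, which had 15.9 CPM. Receptor-signaled-like cells lay between 4.15 and 14.7 CPM over the runs. Type 17-like cells were higher than immature γδ-like cells by 1.80 (SE 0.29, adjusted p = 5.8e-06), with 0.71 in run 2 and 1.91 in run 3. In runs 2 and 3, NK-receptor-like cells without Trdc had 65.1 and 114 CPM. Their fitted rise of 1.38 (SE 0.28, adjusted p = 1.76e-04) stood beside differences in log2(CPM + 1) of 0.06 in run 2 and 1.53 in run 3. Without run 3 the fitted rise was 1.04, in a fit where 1 sum was left for this gate and the spread came from the other gates. That fit also drew on the run 1 sum of immature γδ-like cells, at 11.5 CPM, which had no counterpart in this gate. DESeq2 did not call Ikzf3 in either comparison (adjusted p = 0.185 in NK-receptor-like and 0.0646 in type 17-like cells).

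The B-like gate held Ikzf3 at 32.9 CPM in run 2 and 123 CPM in run 3. In DN4-like cells the levels were 15.9, 4.84 and 65.7 CPM, from 176, 1 and 20 UMIs, against 7.21, 2.20 and 5.41 CPM in cycling DN3-like cells. This rise (log2 2.07, SE 0.51, adjusted p = 0.017) was lost without run 1 (adjusted p = 0.0788) and without run 3 (adjusted p = 0.397). It was lost too without the highest doublet scores (adjusted p = 0.0581). In a fit of sums of at least 50 cells, which keeps only the DN4-like sum of run 1, the log2 change was 1.93. After each cell was thinned to 2000 UMIs, 0 of 345 DN2a-like cells of run 1 held an Ikzf3 UMI, which allows a share of up to 0.870% of cells with a UMI at this depth, and 0.141% and 0.133% did in runs 2 and 3. The share that free RNA gives was not measured separately. Type 17-like cells had more in runs 2 and 3, with 18.8% and 24.1%, or 36.4% and 74.0% without thinning.

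**Figure D4:**
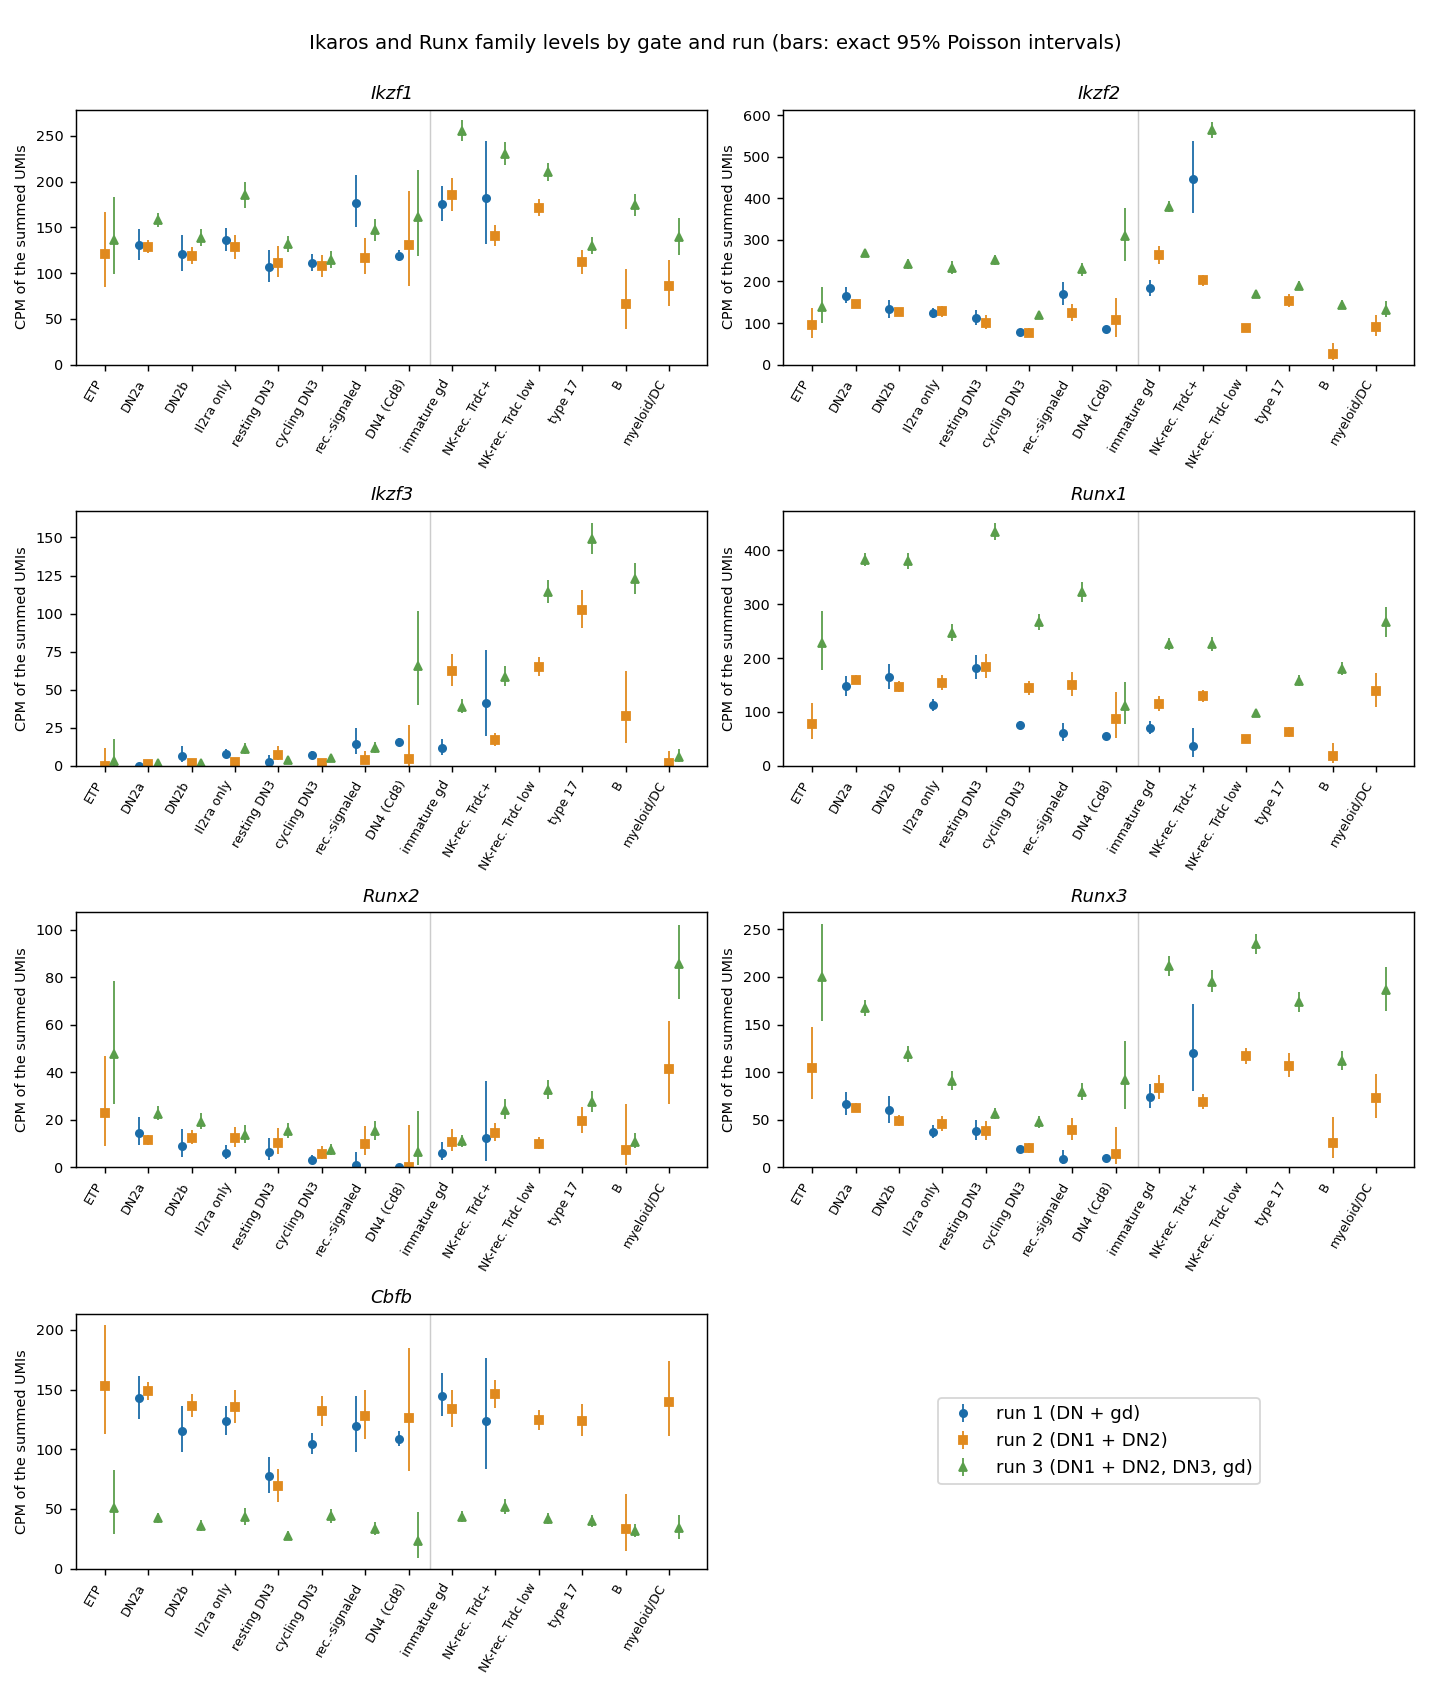
CPM of each member in the 14 gates by run (circles run 1, squares run 2, triangles run 3), with exact 95% Poisson intervals and γδ written as gd. The vertical line separates the DN series on the left from other gates, and Ikzf3 is under 17 CPM at every DN stage except the 27 DN4-like cells of run 3.

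Runx1 was highest in resting DN3-like cells in each run, with 182, 184 and 434 CPM. DN2a-like cells had 148, 160 and 382 CPM and ETP-like cells 78.2 and 228 CPM in runs 2 and 3. The rise from ETP-like to DN2a-like cells was 1.95-fold (log2 0.97, SE 0.27, adjusted p = 0.026). It was lost without run 2 (adjusted p = 0.284), without run 3 (adjusted p = 0.252), with DESeq2 (adjusted p = 0.0676) and with RLE size factors (adjusted p = 0.0834), and the median gene of this comparison was shifted by 0.15. From DN2a-like over DN2b-like to resting DN3-like cells the fitted log2 steps were 0.01 (SE 0.18) and 0.26 (SE 0.18), and neither passed the test. The second was higher in 3 of 3 runs and was called in a fit of its gates alone (log2 0.21, adjusted p = 0.0261).

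Runx1 was lower in the cycling DN3-like, receptor-signaled-like and immature γδ-like gates than in the resting DN3-like gate. Cycling DN3-like cells had 76.0, 144 and 266 CPM and fell by 0.74 on the log2 scale (SE 0.18, adjusted p = 0.00115), and this was lost only without the run as a block (adjusted p = 0.657). Receptor-signaled-like cells had 60.9, 150 and 322 CPM and fell by 0.64 (SE 0.19, adjusted p = 0.0131), which was lost without run 1 (log2 -0.38, adjusted p = 0.143) and in a fit of these gates alone (adjusted p = 0.0648). Of the receptor-signaled-like cells 18.2%, 30.5% and 14.7% were among the highest doublet scores in runs 1 to 3, and both members called in this comparison were called without those cells too. With gates set on thinned cells the change of receptor-signaled-like cells was -0.06 (adjusted p = 0.984). Immature γδ-like cells had 70.3, 115 and 225 CPM and fell by 0.98 (SE 0.18, adjusted p = 7.38e-05). Without thinning, each of these 3 falls was seen within each run. The differences in log2(CPM + 1) in runs 1 to 3 were -1.25, -0.35 and -0.70 in cycling DN3-like cells. They were -1.56, -0.29 and -0.43 in receptor-signaled-like cells and -1.36, -0.67 and -0.94 in immature γδ-like cells.

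DN4-like cells and NK-receptor-like cells without Trdc were lower still. DN4-like cells had 54.9, 87.1 and 112 CPM and fell against cycling DN3-like cells by 0.79 (SE 0.21, adjusted p = 0.0334). That call was lost without run 2 (adjusted p = 0.252), without run 3 (adjusted p = 0.51) and with DESeq2 (adjusted p = 0.0599). It was lost too at 5% mitochondrial counts (adjusted p = 0.0549) and without the highest doublet scores (adjusted p = 0.0635). In sums of at least 50 cells, chosen after seeing the data, only the DN4-like sum of run 1 was left, with a log2 change of -0.64. NK-receptor-like cells without Trdc had 50.4 and 98.3 CPM and fell against immature γδ-like cells by 0.91 (SE 0.21, adjusted p = 5.7e-04). Without run 3 the adjusted p of that fall was 0.0556. Type 17-like cells had 62.3 and 158 CPM, a log2 difference of -0.47 (SE 0.21) that missed the threshold with an adjusted p of 0.0806. It passed without run 1 (adjusted p = 0.00948). In cells thinned to 2000 UMIs, a Runx1 UMI was found in 31.1%, 31.4% and 56.2% of resting DN3-like cells and in 6.65% and 13.2% of NK-receptor-like cells without Trdc, the same order as in CPM.

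Runx2, known as the master regulator of bone formation, had its highest DN series levels in ETP-like cells. ETP-like cells had 22.8 and 47.5 CPM in runs 2 and 3, from 7 and 15 UMIs, DN2a-like cells 14.4, 11.5 and 22.6 CPM in runs 1 to 3, DN2b-like cells 9.03, 12.5 and 19.3 CPM, resting DN3-like cells 6.58, 10.1 and 15.4 CPM and cycling DN3-like cells 3.22, 5.65 and 7.14 CPM. Run 3 was lower at each of these gates than at the one before, and so was run 2 except for DN2b-like cells, which were above DN2a-like cells. Of the steps tested between these gates, that from resting to cycling DN3-like cells passed (log2 -0.97, SE 0.30, adjusted p = 0.00907), and it was lost without run 3 (adjusted p = 0.154) and with gates on thinned cells (log2 -0.27, adjusted p = 0.797). The step from ETP-like to DN2a-like cells did not pass (log2 -0.87, SE 0.42, adjusted p = 0.257). DN4-like cells held 3, 0 and 2 UMIs of Runx2 in the 3 runs, and the fitted change against cycling DN3-like cells (log2 -2.82, SE 0.61, adjusted p = 0.00602) rested on run 1, without which it was -0.83 (adjusted p = 0.842). It was lost too in a fit of these gates alone (adjusted p = 0.315) and with gates on thinned cells (adjusted p = 0.205). Run 1 DN4-like cells stood at 0.270 CPM, with an interval of 0.0557 to 0.790 CPM.

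Outside the DN series Runx2 was highest in myeloid or dendritic-like cells, with 41.4 and 85.3 CPM in runs 2 and 3. That gate held 58 and 89 cells, of which 13.8% and 7.87% kept it after thinning. Among the highest doublet scores were 13.8% and 8.99% of them. The sums also held Cd3e at 361 and 117 CPM and Lck at 506 and 295 CPM, so they were not free of T cell transcripts. Type 17-like cells had 19.3 and 27.6 CPM against 10.9 and 10.9 CPM in immature γδ-like cells of the same runs. This rise of 1.32 on the log2 scale (SE 0.27, adjusted p = 1.94e-04) had an adjusted p of 0.0596 without run 3. Among NK-receptor-like cells without Trdc the level was 9.95 CPM in run 2 and 32.4 CPM in run 3, so that the difference from immature γδ-like cells was -0.11 in run 2 and 1.49 in run 3. The fitted rise (log2 1.19, SE 0.26, adjusted p = 3.15e-04) was 0.22 without run 3 (adjusted p = 0.75). Immature γδ-like cells did not differ from resting DN3-like cells beyond the error (log2 -0.28, SE 0.29, adjusted p = 0.515).

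Runx3 was highest within the DN series in ETP-like cells and higher again in immature γδ-like cells than in the DN3-like gates. ETP-like cells had 104 and 199 CPM in runs 2 and 3, DN2a-like cells 66.2, 62.8 and 167 CPM in runs 1 to 3, DN2b-like cells 59.9, 48.9 and 119 CPM and resting DN3-like cells 38.0, 37.9 and 56.1 CPM. Cycling DN3-like cells were at 18.8, 20.1 and 47.3 CPM. Each of these steps was downward in each run, and the test called that from DN2b-like to resting DN3-like cells (log2 -0.77, SE 0.23, adjusted p = 0.0135), which was lost without run 2 (adjusted p = 0.0629), without run 3 (adjusted p = 0.345) and with DESeq2 (adjusted p = 0.109). The step to cycling cells had an adjusted p of 0.0712 (log2 -0.55, SE 0.24), and of 0.0254 without run 3. Immature γδ-like cells had 74.1, 83.7 and 211 CPM, above resting DN3-like cells in each run and without overlap of the groups. That rise was 2.84-fold (log2 1.51, SE 0.23, adjusted p = 2.46e-06).

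NK-receptor-like cells without Trdc held Runx3 at 117 and 234 CPM, the highest of the gates in runs 2 and 3. Against immature γδ-like cells the rise was 1.46-fold (log2 0.54, SE 0.21, adjusted p = 0.0365), and it was lost without run 2 (adjusted p = 0.427), when adjusted over the 9 comparisons together (adjusted p = 0.0582), with DESeq2 (adjusted p = 0.177) and with gates on thinned cells (adjusted p = 0.532). Type 17-like cells had 107 and 173 CPM and did not pass the test (log2 0.17, SE 0.22). In receptor-signaled-like cells the runs went apart, with 9.03 CPM from 8 UMIs in run 1, 39.0 CPM in run 2 and 78.9 CPM in run 3. The fitted change against resting DN3-like cells was 0.03 (SE 0.26). DN4-like cells, at the end of the DN series, had 9.82, 14.5 and 92.0 CPM from 109, 3 and 28 UMIs, the lowest gate of run 2 and the second lowest of run 1, with a fitted change against cycling DN3-like cells of -0.44 (SE 0.31).

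Cbfb encodes the common partner of the 3 Runx proteins. Its lowest DN gate was the resting DN3-like gate in runs 1 and 2, at 77.5 and 69.0 CPM, and this gate had 27.6 CPM in run 3. DN2b-like cells had 116, 136 and 35.8 CPM and the fall from there was 0.62 on the log2 scale (SE 0.13, adjusted p = 5.1e-04). It was lost without run 2 (log2 -0.44, adjusted p = 0.102) and with gates on thinned cells (log2 -0.49, adjusted p = 0.172). Cycling DN3-like cells had 105, 132 and 44.2 CPM and rose by 0.69 (SE 0.13, adjusted p = 6.45e-05), in each of the 3 runs. Receptor-signaled-like cells had 120, 128 and 33.3 CPM and rose by 0.57 (SE 0.14, adjusted p = 0.00311), which was lost without run 2 (adjusted p = 0.135) and with gates on thinned cells (adjusted p = 0.946). Immature γδ-like cells had 145, 134 and 43.7 CPM and rose by 0.83 (SE 0.13, adjusted p = 5.1e-06), again in each run. NK-receptor-like and type 17-like cells did not differ from them beyond the error, with log2 changes of 0.08 (SE 0.13) and -0.04 (SE 0.14).

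**Figure D5:**
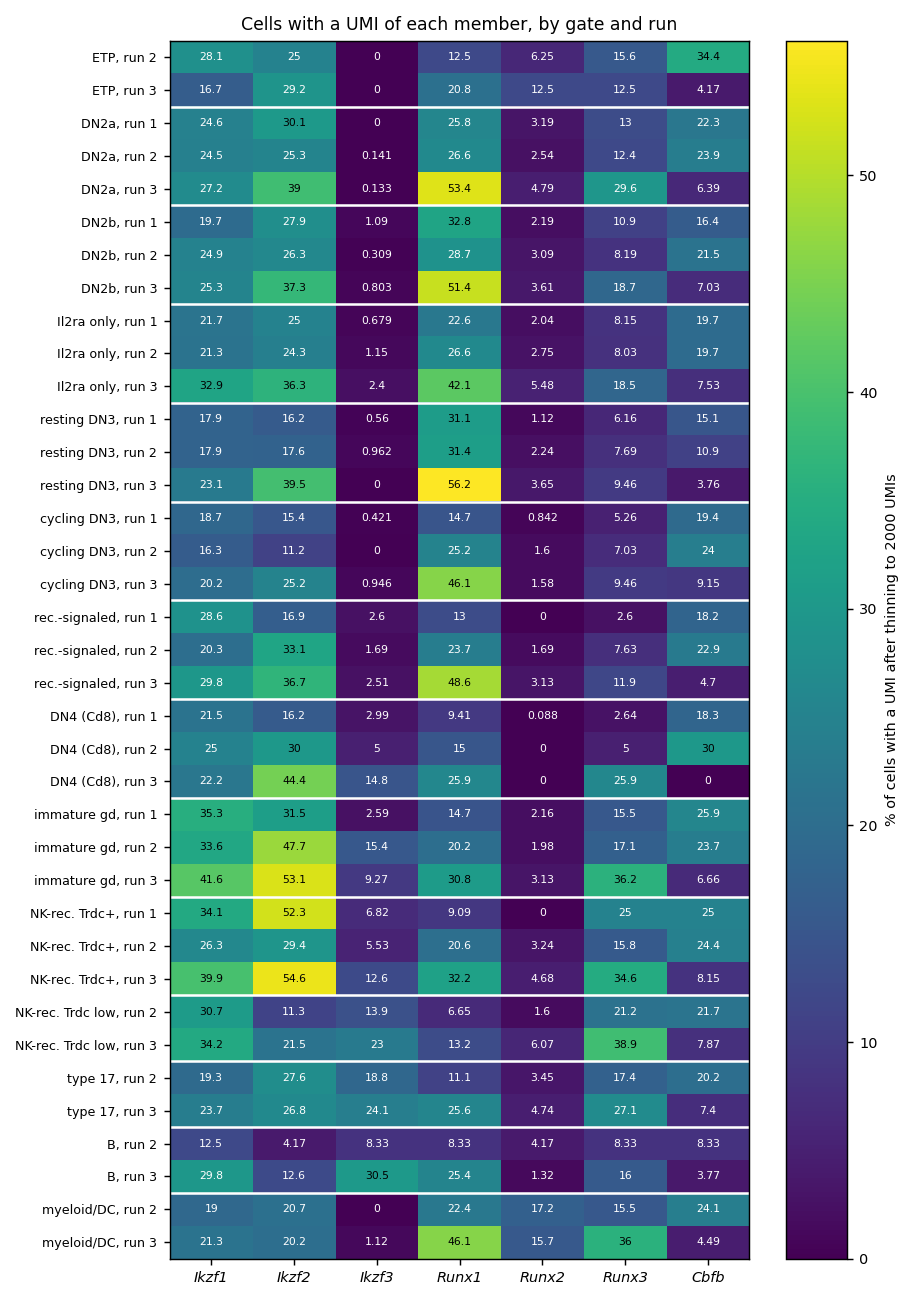
Percent of cells with a UMI of each member, by gate and run, after each cell was thinned to 2000 UMIs (γδ written as gd). Darker cells are lower shares, and the Ikzf3 column is dark from the ETP-like to the cycling DN3-like gate and reaches 24.1% in type 17-like cells of run 3.

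The spread of levels over runs was wide. When the gates were ordered by their mean over runs, each neighboring pair had overlapping run ranges, for each of the 7 members. These ranges include the differences between runs and are not paired by run. They therefore do not measure the spread of a difference between gates. Gates with sums in runs 2 and 3 only stand in this order beside gates of 3 runs. By that order Ikzf1 ran from 205 ± 43.9 CPM (SD, n = 3) in immature γδ-like to 111 ± 3.63 CPM in cycling DN3-like cells, and Runx1 from 267 ± 145 CPM (SD, n = 3) in resting DN3-like to 74.4 ± 33.9 CPM (SD, n = 2) in NK-receptor-like cells without Trdc. Ikzf2 ran from 404 ± 185 CPM in NK-receptor-like cells with Trdc to 84.7 ± 83.6 CPM in B-like cells, and Ikzf3 from 126 ± 32.9 CPM in type 17-like to DN2a-like cells, which lay between 0 and 1.88 CPM. Runx2 ran from 63.4 ± 31.0 CPM in myeloid or dendritic-like to 2.28 ± 3.72 CPM in DN4-like cells and Runx3 from 176 ± 83.2 CPM in NK-receptor-like cells without Trdc to 28.7 ± 16.1 CPM in cycling DN3-like cells. Cbfb ran from 111 ± 59.8 CPM in DN2a-like to 32.3 ± 0.912 CPM in B-like cells. In unassigned cells Ikzf1 stood at 126, 133 and 173 CPM and Runx1 at 96.4, 141 and 279 CPM, within the range of the gates.

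Partners of the Ikaros proteins were given by a list of 17 genes, the relatives Ikzf4 and Ikzf5 and subunits of NuRD, Sin3 and CtBP complexes, all of which were tested. From ETP-like to DN2a-like cells 5 of 17 rose and 0 fell, among them Mta3 (log2 0.77, SE 0.21, adjusted p = 0.0165) and Mta2 (log2 0.66, SE 0.18, adjusted p = 0.0209), both NuRD subunits. DESeq2 called 0 of the 17 in this step, and edgeR called 6.23% of all genes. The list median was 0.32 there against 0.15 over all genes. From resting to cycling DN3-like cells 6 rose and 2 fell, where 39.9% of all genes were called (1906 higher and 2833 lower), with Rbbp7, a histone-binding subunit, up by 0.98 (SE 0.12, adjusted p = 5.21e-08) and Ikzf4, which encodes Eos, down by 1.25 (SE 0.24, adjusted p = 7.82e-05). The median was 0.11 against -0.15 over all genes. Immature γδ-like against resting DN3-like cells had 2 higher and 1 lower, the latter being Ikzf4 (log2 -1.80, SE 0.26, adjusted p = 1.52e-06). There 28.1% of all genes were called.

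Of the partners called in NK-receptor-like cells without Trdc and in type 17-like cells, more were lower than higher. All genes called split into 2309 higher and 2107 lower in the former and 2015 higher and 1976 lower in the latter. In type 17-like cells 6 of 17 partners were called, near the share of all genes. NK-receptor-like cells without Trdc had 1 higher and 8 lower of 17 against immature γδ-like cells, where 37.2% of all genes were called, with a median of -0.27 against 0.00 over all genes, and type 17-like cells 1 higher and 5 lower, where 33.6% were called, with a median of -0.24 against -0.02. Mta3 fell by 0.99 (SE 0.17, adjusted p = 9.48e-06) and by 1.47 (SE 0.17, adjusted p = 2.33e-08), respectively. Between DN2b-like and DN2a-like cells edgeR and DESeq2 each called 0 of 17, with 1 at an unadjusted p under 0.05. The other counts were 4 from DN2b-like to resting DN3-like cells (1 higher and 3 lower), 3 in receptor-signaled-like cells (2 higher and 1 lower) and 1, Ikzf4, in DN4-like cells (log2 -2.07, SE 0.40, adjusted p = 0.00194). Of all genes 24.3%, 19.8% and 2.52% were called in these comparisons. The summed level of the list was 1386 and 1493 CPM in NK-receptor-like cells without Trdc, and 783 CPM in the B-like sum of run 2, against 1817 to 2424 CPM in each sum from ETP-like to DN4-like cells.

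Runx partners were a list of 12 symbols for corepressors of the Tle and Cbfa2t families, Ets1, Ep300, Prmt1 and Kat6a, of which 10 were tested. Ets1, which binds DNA together with Runx1, rose from ETP-like to DN2a-like cells by 2.15 (SE 0.30, adjusted p = 5.54e-06) and from DN2b-like to resting DN3-like cells by 0.63 (SE 0.15, adjusted p = 0.00203). In the first of these steps it was the only one of 10 called (6.23% of all genes), and in the second 2 rose and 3 fell (24.3%). From resting to cycling DN3-like cells 1 rose, Prmt1, an arginine methyltransferase (log2 0.88, SE 0.14, adjusted p = 4.54e-06), and 6 fell, led by Cbfa2t3 (log2 -0.83, SE 0.16, adjusted p = 6.16e-05). There 39.9% of all genes were called (1906 higher and 2833 lower). Receptor-signaled-like cells had 2 higher and 4 lower, where 19.8% of all genes were called. Tle4, a Groucho-type corepressor, was higher in immature γδ-like than in resting DN3-like cells by 0.83 (SE 0.20, adjusted p = 0.0012), though it was lower in run 1. In NK-receptor-like cells without Trdc it was higher than in immature γδ-like cells by 1.30 (SE 0.16, adjusted p = 5.06e-08). The counts were 3 higher and 2 lower in the former comparison, 2 higher and 3 lower in the latter and 0 higher and 3 lower in type 17-like cells, where Cbfa2t3 fell by 1.93 (SE 0.21, adjusted p = 3.99e-09). Of all genes 28.1%, 37.2% and 33.6% were called in these comparisons. Between DN2b-like and DN2a-like cells edgeR called 0 of 10, DESeq2 called 0 and 0 had an unadjusted p under 0.05, and between DN4-like and cycling DN3-like cells edgeR called 0, DESeq2 called 1 and 2 had an unadjusted p under 0.05.

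Genes known as targets were listed separately. Of 5 Ikaros targets 4 were tested. Dtx1 and Hes1, both also Notch targets, were called higher in resting DN3-like than in DN2b-like cells. Both were called lower in cycling DN3-like and in immature γδ-like than in resting DN3-like cells. The resting DN3-like gate was set by Ptcra and Il2ra with Rag1 or Notch3, and the DN2b-like gate by Cpa3 and Il2ra with Rag1, Rag2 or Ptcra. Genes that vary with these markers are therefore tied to the gates by definition. Dtx1 rose from DN2a-like to DN2b-like cells 2.82-fold (SE 0.31 on the log2 scale, adjusted p = 0.0342). From there to resting DN3-like cells it rose by 2.90 on the log2 scale (SE 0.25, adjusted p = 3.37e-11), a larger step. It fell again in cycling DN3-like cells by 1.81 (SE 0.22, adjusted p = 3.87e-08) and from resting DN3-like to immature γδ-like cells it fell by 3.31 (SE 0.27, adjusted p = 5.96e-12), both on the log2 scale. For DN2b-like against DN2a-like cells DESeq2 called 0 of the 4 tested targets. Dntt, which encodes the terminal transferase of receptor gene joining, rose from ETP-like to DN2a-like cells by 1.31 (SE 0.24, adjusted p = 2.51e-04).

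Of 10 Runx targets 10 were tested. From ETP-like to DN2a-like cells 2 rose and 1 fell, with Bcl11b, a factor of T lineage commitment, up by 3.35 (SE 0.26, adjusted p = 1.96e-11) and Spi1, which encodes PU.1, down by 3.14 (SE 0.30, adjusted p = 1.48e-09). NK-receptor-like cells without Trdc had 7 higher and 2 lower than immature γδ-like cells. Gzmb, encoding granzyme B, led with 6.78 (SE 0.33, adjusted p = 6.92e-18), before Tbx21, encoding T-bet, with 6.56 (SE 0.41, adjusted p = 4.79e-15). There 37.2% of all genes were called, and the gate was set by Klrd1, Il2rb, Nkg7, Ccl5, Klrb1c and Ncr1. Genes that vary with these markers are therefore tied to the gate by its definition. In type 17-like cells 3 were higher and 2 lower, with Zbtb7b, encoding ThPOK, up by 4.15 (SE 0.42, adjusted p = 1.28e-09). The list medians of these comparisons were 2.95 and 0.47, against 0.00 and -0.02 over all genes. In the second 33.6% of all genes were called. The shares of all genes called in the other steps are those given with the members. In the remaining steps the counts higher and lower were 0 and 0 for DN2b-like (0 also by DESeq2 and at an unadjusted p under 0.05), 3 and 1 for resting DN3-like, 0 and 2 for cycling DN3-like, 1 and 1 for receptor-signaled-like, 1 and 0 for DN4-like and 3 and 1 for immature γδ-like cells. Whether any of these genes was bound or regulated by a member was not measured.

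Likeness between genes was taken as Pearson's r of log2(CPM + 1) over the 37 sums, which share libraries and differ in depth, as a description. Because of the run differences it was also taken after centering each gene on its run, a scale chosen after seeing the data. The nearest genes of Ikzf2 were Chd3, Zbtb1 and Tox (r = 0.89, 0.84 and 0.83), and these were the nearest 3 after centering too. For Ikzf3 they were Cd2, Slfn2 and Chd7 (r = 0.89, 0.86 and 0.85), with Trac in the place of Chd7 after centering. For Runx2 they were Cyfip1, Arid5a and Ptpre (r = 0.88, 0.86 and 0.85), of which Cyfip1 stayed.

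The nearest genes of the other members depended on the scale, since none of their 3 was kept. Ikzf1 had Galnt6, Gimap9 and Chd3 (r = 0.82, 0.82 and 0.81) and Limd2, Lasp1 and Actr3 after centering. Runx1 had Mier1, Pan3 and Ldlrad4 (r = 0.89 each) and Fcho1, Def8 and Naa80 after centering. Runx3 had Pglyrp2, Smad7 and Smarca2 (r = 0.91, 0.91 and 0.89) and Rab37, Srgn and Cst7 after centering, and Cbfb had Arf1, 2610001J05Rik and Rab11a (r = 0.96, 0.94 and 0.94) and Tpm3, Clta and Srpk1 after centering. Among the members, the pairs with the highest r were Runx2 with Runx3 (0.83, and 0.77 after centering) and Ikzf1 with Ikzf2 (0.79, and 0.72). Ikzf3 and Runx1 ran opposite to each other, at -0.33 and -0.67 after centering. Cbfb with Runx1 was -0.43 over all sums and 0.35 after centering, so that its sign turned once the runs were centered.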

How the data were processed

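Counts were deposited by the authors as 10x Chromium gene by cell matrices of raw UMI counts from Cell Ranger on mm10, 1 per run, without normalization (the table of run 3 names version 4.0.0, and the study names 2 versions without assigning them to runs). The submitters' processing notes also name R 3.6.3 and Seurat 2.3, whose outputs were not used here. The members, gates and gene lists were chosen with earlier results of these data known.

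Kept cells had between 500 and 5000 detected genes and no more than 7% of counts from mitochondrial genes, and no doublets were removed. CPM were taken over the 27734 genes common to the runs. Sums of at least 20 cells (37) entered 1 edgeR 4.0.16 (R 4.3.3) fit with gate and run as terms, with TMM factors, filterByExpr and 48 gate genes left out. P-values came from the quasi-likelihood F test and were adjusted by the Benjamini-Hochberg method over 11863 genes, at 0.05. The differences given within single runs are of log2(CPM + 1) without TMM, and the fit also used sums of a run that held only 1 of the 2 gates. A fitted value therefore need not lie between them. The standard errors come from this fit, in which all gates share the estimate of the spread. They do not measure the spread between the runs of a single comparison. The runs are 3 pools of animals, and the same run was shared by the gates compared: residuals of the gates of a run correlated at 0.143 or more in 108 of 108 pairs (median 0.579). Alternatives were DESeq2 1.42.0, RLE factors, no filter, no run term, the 2 gates alone, 5% mitochondrial counts, removal of the 8% of cells with the highest Scrublet scores (scanpy 1.11.5), gates set on cells thinned to 2000 UMIs, adjustment over 9 comparisons, and each run left out, where a gate left with 1 sum is assumed to vary like the others. Sums of at least 50 cells and run-centered correlations were added after seeing the data.

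All members were described in all comparisons. Of each list, the 2 called genes of largest change per comparison could be named, and for each member the 3 genes of highest Pearson correlation over the sums, of at least 10 CPM on average. Intervals of shares were exact Clopper-Pearson intervals, and the upper limit for 0 cells was 3 cells of the total. On simulated counts of the same depths with 2-fold changes, edgeR recovered 48 of 190 changed genes of 11387 between DN2a-like and ETP-like cells, 152 of 194 of 11398 between DN2b-like and DN2a-like cells and 136 of 195 of 11382 between immature γδ-like and resting DN3-like cells. Unchanged genes called numbered 4, 4 and 9. The simulation used 1 mean profile per run and 1 spread for all genes, with no other differences between gates. The counts recovered therefore do not measure power in these data.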

Additional observations from a re-analysis of the deposited data

Results flagged for a closer look

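Runx3 moved in opposite directions in different runs in 2 of 63 member results, with counting intervals of the gates that did not overlap within either run, and the difference between runs was not tested. Between receptor-signaled-like and resting DN3-like cells, the difference in log2(CPM + 1) was -1.96 in run 1, from 8 UMIs in the signaled gate, and 0.49 in run 3. Between DN4-like and cycling DN3-like cells it was -0.87 in run 1, from 109 UMIs in 1137 DN4-like cells, and 0.94 in run 3, from 28 UMIs in 27 cells. In both comparisons run 3 differed from run 1 in sort, animals and library at once, and these cannot be told apart. Over the 63 member results, 15 had runs of opposite sign.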

How the results depend on the processing

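Of 27 member calls, 2 were lost under no alternative, 7 only without the run as a block and 18 under at least 1 other alternative, and the cause was not tested. No member result called in the main fit or in an alternative turned its direction between them. The signs of results called in neither were not compared. Without the block, 0 members were called in each comparison except immature γδ-like against resting DN3-like cells (2).

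DN2a-like against ETP-like cells gave 0 with RLE factors, DESeq2 or doublets removed, and 2 without a filter, in a fit of the gates alone or adjusted over 9 comparisons, with 0 to 2 when runs were left out. DN2b-like against DN2a-like cells gave 2 in a fit of the gates alone. Resting DN3-like against DN2b-like cells gave 3 in a fit of the gates alone, 1 with DESeq2 or thinned gates and 0 to 2 with runs left out. Receptor-signaled-like cells gave 1 in a fit of the gates alone, 0 with thinned gates and 1 to 2 with runs left out. DN4-like cells gave 1 with doublets removed or in sums of at least 50 cells and 1 to 2 with runs left out. NK-receptor-like cells without Trdc gave 3 with DESeq2 and 2 to 5 with runs left out, and type 17-like cells 2 and 1 to 5.

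Thinned gates placed 121 of 224 member levels inside their original 95% intervals, and gates set by several genes changed most: 5.96% to 10.2% of receptor-signaled-like cells kept their gate. No ETP-like sum was left then, nor in sums of at least 50 cells. Counts over all genes moved by more than 1.5 times under these settings. Without the block they fell to 269 (from 739), 0 (15), 330 (2884), 720 (4739), 249 (2346), 3 (299), 660 (3336), 938 (4416) and 852 (3991) in the 9 comparisons. Their first gates were, in order, DN2a-like, DN2b-like, resting DN3-like, cycling DN3-like, receptor-signaled-like, DN4-like, immature γδ-like, NK-receptor-like without Trdc and type 17-like. Thinned gates gave 718 for resting DN3-like, 2122 for cycling DN3-like, 6 for receptor-signaled-like and 457 for DN4-like cells. Fits of the gates alone gave 667 for DN2b-like, 1035 for receptor-signaled-like, 115 for DN4-like and 2163 for immature γδ-like cells. Adjustment over 9 comparisons gave 1139 for DN2a-like, 213 for DN2b-like and 689 for DN4-like cells. Removal of doublets gave 3 for DN2b-like and 186 for DN4-like cells, and for DN2b-like cells DESeq2 gave 6, no filter 68 and sums of at least 50 cells 26. Leaving out run 3 gave 193 for DN2a-like, 0 for DN2b-like, 885 for resting DN3-like, 2526 for cycling DN3-like, 1251 for receptor-signaled-like, 91 for DN4-like, 1449 for immature γδ-like, 2067 for NK-receptor-like and 1966 for type 17-like cells. Leaving out run 2 gave 336 for DN2a-like, 3 for DN2b-like, 1640 for resting DN3-like, 70 for DN4-like and 2545 for type 17-like cells, and leaving out run 1 gave 23 for DN2b-like, 1371 for receptor-signaled-like and 186 for DN4-like cells. Of the DN4-like sums, those of runs 2 and 3 held 206606 and 304387 UMIs, so that 3 counts were 14.5 and 9.86 CPM there.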

Other observations

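In the unassigned cells, which entered no comparison, Ikzf2 stood at 134, 168 and 328 CPM in runs 1 to 3, Ikzf3 at 8.06, 13.7 and 26.4 CPM and Runx2 at 3.37, 12.4 and 17.4 CPM. Runx3 stood there at 28.7, 55.8 and 94.3 CPM and Cbfb at 111, 122 and 39.4 CPM.

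Marker sums of other cell types ranged over the 37 sums from 0 to 586 CPM for 5 erythroid genes (median 10.8), from 3.17 to 155 CPM for 5 epithelial genes (median 29.2), from 9.68 to 3796 CPM for 5 B cell genes (median 37.5) and from 2.16 to 627 CPM for 7 myeloid genes (median 17.5). Their part in the member levels was not tested.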
